A study of Mus musculus with 7 samples.

Results

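The clustered protocadherin locus was taken as the window chr18:37050001-38050000 of mouse build mm9, which holds the Pcdha, Pcdhb and Pcdhg gene families and the sequence downstream of them. Its members are the ATAC-seq peaks that overlap this window by at least 1 bp, chosen by position and not by any measured value. They number 17 of the 28907 reproducible peaks of female embryonic stem cells (mESC), 32 of 41126 of wild-type neural progenitor cells (NPC) and 22 of 37270 of deltaFT NPC. The 4 lists from male stem cells hold 102, 91, 87 and 89 more, so that 440 of 644207 peaks over these 7 lists lie in the locus. Overlapping peaks of the 3 female lines were joined into 44 sites, numbered 1 to 44 along the chromosome.

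Clustered protocadherins are cell adhesion proteins with which neurons tell their own branches from those of other neurons. In the Pcdha and Pcdhg families each variable exon has its own promoter and is spliced to constant exons shared by the family, whereas each Pcdhb gene is a single exon. Promoter use depends on CTCF, cohesin and distal enhancers, and in many neurons a few promoters are chosen on each chromosome copy independently, so that the copies of a gene can differ in use within 1 cell. RefSeq (GRCm38.p6) lists 14 Pcdha, 22 Pcdhb and 22 Pcdhg genes, in that order along the chromosome. Since that build is not the one of the files, only names and order were taken from it, and no site was assigned to a gene or an enhancer.

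ATAC-seq reads open chromatin from the places where Tn5 transposase inserts adapters. The female lines, all from the cross 129S1 x Cast:EiJ F1, were mESC (line F1216, grown in serum and LIF), wild-type NPC (line C2) and NPC with the deltaFT deletion (line sgdgb2), both NPC lines grown with FGF and EGF. deltaFT removes a boundary region on the X chromosome that includes Dxz4, so the protocadherin locus is not part of it. The male lines (TXY) were J1 mESC with a doxycycline-inducible Xist on the X chromosome, either intact (WT) or with the RepA region deleted (deltaRepA), each untreated or given 2 ug/mL doxycycline (dox) for 48 hours. Each group is 1 sample and each NPC genotype is 1 line, so line, clone and genotype cannot be told apart and a test between groups has no replicates to rest on. The sources used here do not say whether a line was grown from 1 cell. The 3 female lists come from 2 libraries per line, and the TXY lists from merged libraries.

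Where labels of 1 sample conflict, its title was used. This touches the mESC, whose source label reads as neural progenitors although the medium is that of stem cells, and both samples with dox, whose descriptions point to the file made without it. The labelled cell types were not checked against marker genes, because gene positions of mm9 were not used here. The TXY lists held 34 to 40 peaks on chromosome Y and the female lists 0, as the labels of sex require. Reads in peaks numbered 6490181 in mESC, 11014387 in wild-type NPC and 11085592 in deltaFT NPC. Read levels are given as RPM, the reads of a peak divided by the total of its list and multiplied by 1000000. Intervals are exact Clopper-Pearson 95% intervals that cover counting error only, because each rests on 1 list without replicates. The sources used here do not say whether PCR copies of 1 molecule were removed. Copies that remain would make the intervals too narrow.

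More of the locus was called open in the NPC lines than in mESC. Its peaks covered 6524 bp in mESC, 14020 bp in wild-type NPC and 9964 bp in deltaFT NPC, and held 2372 reads (365 RPM), 8196 reads (744 RPM) and 5995 reads (541 RPM). Per kb of peak the level was nearly the same, 56.0, 53.1 and 54.3 RPM, so the totals followed the length that was called. The mESC list also rests on fewer reads, and the part of depth in its lower number of sites was not tested. The 32 wild-type NPC peaks placed the locus among the denser windows of its own list, since 8.99% of 1 Mb windows with peaks held as many. The shares were 25.9% for mESC and 28.3% for deltaFT NPC. The library lists, which are less strict, did not keep this order: they held 55 and 57 locus peaks in mESC, 63 and 65 in wild-type NPC and 47 and 39 in deltaFT NPC. The count of peaks in mESC was therefore above that of deltaFT NPC in the library lists and below it in the reproducible lists.

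**Figure D1:**
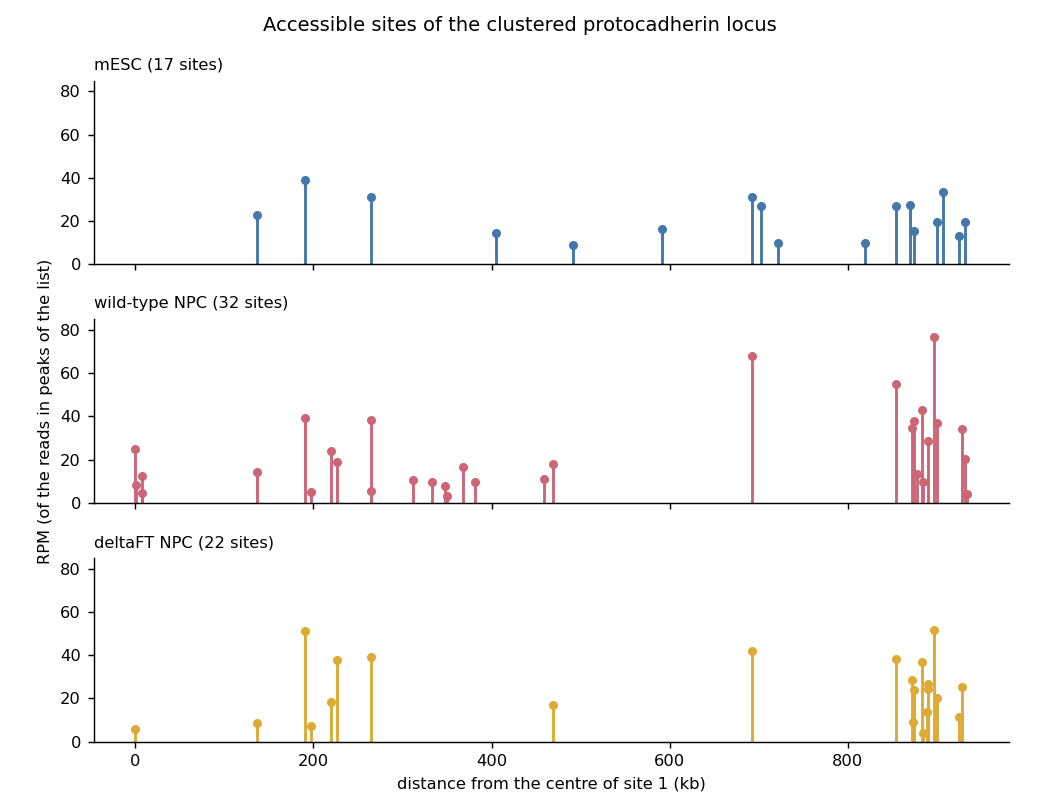
Read level of each site in the 3 female lines (y axis, RPM of the reads in peaks of the list) against its distance from the first site (x axis, kb), 1 point per site and no replicate error. All 3 lines have their densest group of sites at the right end. The last 100 kb of the window holds 7 of 17 in mESC, 12 of 32 in wild-type NPC and 13 of 22 in deltaFT NPC. Wild-type NPC fills a stretch near 350 kb where deltaFT NPC has few.

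Reads were concentrated at the far end of the window. The last 100 kb (chr18:37950001-38050000) held 7 peaks with 155 RPM in mESC, 12 peaks with 394 in wild-type NPC and 13 peaks with 314 in deltaFT NPC. The first 300 kb (chr18:37050001-37350000) held 2, 9 and 6 peaks, with 62.1, 152 and 129 RPM. In the middle the lines differed in where peaks were called. In the next 300 kb (chr18:37350001-37650000) wild-type NPC had 10 peaks, mESC 3 and deltaFT NPC 2, whereas in the 300 kb after that (chr18:37650001-37950000) mESC had 5 peaks and each NPC line had 1. These stretches were drawn after the values were seen.

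In the library lists the middle gap of deltaFT NPC was smaller: chr18:37350001-37650000 held 11 and 7 peaks in its libraries, against 18 and 20 in those of wild-type NPC and 13 and 9 in those of mESC. The preference of mESC for chr18:37650001-37950000 was kept, with 17 and 30 peaks in its libraries, 7 and 9 in those of wild-type NPC and 8 and 7 in those of deltaFT NPC.

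By the reproducible lists alone, 7 of the 44 sites were open in all 3 female lines and 8 in mESC alone. Another 11 were in both NPC lines but not mESC, 13 in wild-type NPC alone and 3 in deltaFT NPC alone. Site 41 was shared by mESC and deltaFT NPC, and site 43 by mESC and wild-type NPC. Both were also in the library lists of the third line, and 5 of the 11 were in a mESC library list. On autosomes 10949 joined sites were in all 3 lines and 13051 in mESC alone. An NPC list but not mESC held 34808 autosomal sites and 27 of the locus. Autosomal numbers of the other classes were not computed. The 7 common sites are 5, 6, 11, 23, 27, 31 and 39. All 7 were also in each of the 4 TXY lists, as were 98.6% of autosomal sites open in the 3 female lines.

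Site 23 (chr18:37803554-37804256) was the tallest common site in wild-type NPC. It had 31.3 RPM in mESC, 68.1 in wild-type NPC and 42.1 in deltaFT NPC. Site 27 (chr18:37965625-37966181) gave 26.8, 54.9 and 38.4 in the same order. In RPM per peak both were highest in wild-type NPC and lowest in mESC. The called widths in the same order were 420, 674 and 539 bp at site 23 and 310, 552 and 557 bp at site 27. The order therefore includes peak width and need not hold per bp. Site 6 (chr18:37303081-37304092) differed less, with 39.1, 39.5 and 51.0, and was highest in deltaFT NPC.

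Of the 8 matched peaks of wild-type NPC and mESC, 3 were at least 2 fold higher in wild-type NPC, where 6.92% of autosomal matched peaks were. They were sites 23 (log2 difference 1.12), 27 (1.03) and 31 (1.32; chr18:37985901-37986440). None was 2 fold lower, against a background of 19.3%. The median log2 difference was 0.60 over the 8 sites and -0.24 over autosomal matched peaks. Between deltaFT NPC and mESC, 0 of 8 matched peaks were 2 fold higher (background 7.91%) and 1 was 2 fold lower (background 12.8%), namely site 5 (chr18:37249371-37249885), which had 149 reads in mESC and 96 in deltaFT NPC. The widths of matched peaks differ between lists, and with reads counted per bp of peak none of these calls remained.

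In wild-type NPC the 5 sites with most reads outside the mESC list, 38, 33, 29, 42 and 37, all lay in the last 100 kb. In deltaFT NPC site 9 in the first 300 kb, with 418 reads, came between them. Site 38 (chr18:38009023-38009679) had the most reads of the locus in both NPC lines, 846 in wild type and 574 in deltaFT, and was in no mESC or TXY list. Site 29 (chr18:37983714-37984310) had 380 and 314 reads and was likewise in no mESC or TXY list. Site 33 (chr18:37994998-37995957) had 471 and 409 reads, but 1 mESC library list and all 4 TXY lists also held a peak there. Site 42 (chr18:38039748-38040141) had 376 and 280 reads and was in both mESC library lists and all TXY lists.

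Sites 38 and 29 thus separated NPC from stem cells in every list, whereas sites 33 and 42 did so only in the reproducible lists. Over all wild-type NPC peaks of the locus, 16 of 32 (50.0%, interval 31.9% to 68.1%) were in no mESC list, where 52.5% of autosomal peaks were. For deltaFT NPC it was 7 of 22 (31.8%, 13.9% to 54.9%) against 46.4%. Both intervals include the autosomal value.

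The 8 sites of mESC alone were all in each TXY list, as were 81.7% of autosomal sites of mESC alone. Site 40 (chr18:38019627-38020131) had the most reads among them, 216, followed by site 28 (chr18:37982109-37982638) with 178 and site 24 (chr18:37815180-37815645) with 174. Site 24 was in all 4 NPC library lists. The other 7, sites 18, 21, 22, 25, 26, 28 and 40, were in no NPC list of any kind. Taken against each NPC line alone, 7 of the 17 mESC peaks (41.2%, 18.4% to 67.1%) were likewise in no list of that line. Of autosomal mESC peaks 41.1% were absent from every wild-type NPC list and 40.1% from every deltaFT NPC list. The autosomal share absent from the lists of both lines was not computed. Sites 28 and 29 lie close together near the right end of the locus and were listed in opposite cell types, 28 in stem cells and 29 in progenitors.

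**Figure D2:**
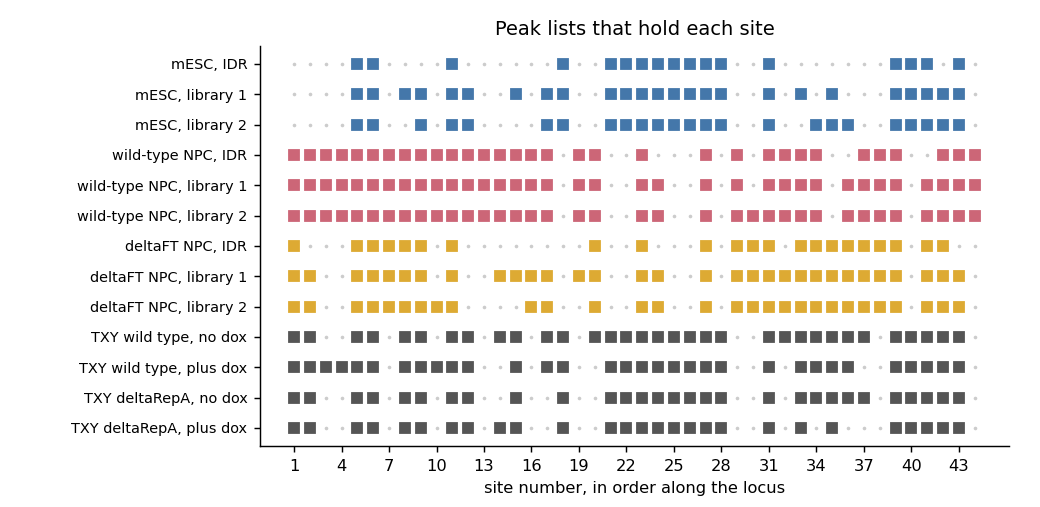
Peak lists (rows) that hold each of the 44 sites (x axis, site number in order along the locus), where a square marks a site that is in the list and a small dot one that is not. The 17 mESC sites are filled in all 4 TXY rows, sites 12 to 17 are filled in wild-type NPC and empty in the reproducible list of deltaFT NPC, and sites 29 and 38 are filled in NPC rows only.

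The NPC lines shared most of their sites. Of the 32 wild-type NPC peaks 18 (56.2%, 37.7% to 73.6%) were in the deltaFT list, against 66.0% of autosomal peaks, and of the 22 deltaFT peaks 18 (81.8%, 59.7% to 94.8%) were in the wild-type list, against 72.2%. With library lists included, 5 wild-type peaks (15.6%, 5.28% to 32.8%) were in no deltaFT list, where the background was 10.6%. They were sites 3, 4, 12, 13 and 44. One deltaFT peak, site 35 (4.55%, 0.115% to 22.8%), was in no wild-type NPC list, where the background was 5.53%. Each of these shares has an interval that includes its autosomal value.

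Read levels of matched peaks were mostly lower in deltaFT than in wild-type NPC. Over 18 matched peaks the median log2 difference was -0.42, with 4 above 0, while the autosomal median was 0.08. Site 1 (chr18:37112123-37112665) had 276 reads in wild type and 62 in deltaFT, a log2 difference of -2.16. Site 34 (chr18:37996025-37996293) had 104 and 45 reads, a difference of -1.22. Those 2 sites were at least 2 fold lower (background 7.33%) and 1, site 9 (chr18:37337909-37338555), was 2 fold higher with 207 and 418 reads (background 8.70%). The peak at site 1 spanned 543 bp in wild type and 209 bp in deltaFT, and per bp no site passed 2 fold.

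Allelic reads are those the authors gave to 1 parental genome. Sites with at least 10 of them were used, 15 in mESC, 26 in wild-type NPC and 16 in deltaFT NPC. No strain is named for the 2 allele counts of a peak. They are therefore told apart by their order, as the first-listed and the second-listed allele, and shares are of the first-listed. A site counted as unequal where its interval left out 50%. Sites 38 and 39 had no allelic read in any list that held them, so allele use could not be read at the NPC site with the most reads.

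In mESC 0 of 15 sites were higher on the first-listed allele and 3 on the second-listed, against autosomal backgrounds of 11.4% and 16.9%. They were site 6 with 57 first-listed and 85 second-listed reads (40.1%, 32.0% to 48.7%), site 18 (chr18:37516766-37517044) with 24 and 46 (34.3%, 23.3% to 46.6%) and site 22 (chr18:37703200-37703507) with 23 and 59 (28.0%, 18.7% to 39.1%). Shares of the 15 sites ran from 28.0% to 61.5%. None of them reached 90% on either allele.

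Wild-type NPC leaned the other way, with 10 of 26 sites higher on the first-listed allele (background 17.3%) and 2 on the second-listed (background 15.0%). The first-listed sites were 5, 6, 9, 16, 17, 20, 23, 27, 29 and 42. Between sites 29 and 42 none was unequal, with 50.4% at site 31 and 46.2% at site 33. Site 23 had 247 and 169 reads (59.4%, 54.5% to 64.1%), and site 27 had 197 and 116 (62.9%, 57.3% to 68.3%). Site 11 (chr18:37377530-37378141) went against them with 55 and 83 (39.9%, 31.6% to 48.5%). Of its neighbours on either side with allelic reads, site 9 was at 68.8% and site 12 at 54.8%.

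DeltaFT NPC had 1 of 16 sites higher on the first-listed allele (background 12.8%) and 4 on the second-listed (background 17.6%). The 4 were site 20 (chr18:37580903-37581607) with 43 and 78 reads (35.5%, 27% to 44.8%), site 27 with 82 and 146 (36.0%, 29.7% to 42.6%), site 31 with 73 and 100 (42.2%, 34.7% to 49.9%) and site 42 with 51 and 84 (37.8%, 29.6% to 46.5%). Sites 20, 27 and 42 were therefore unequal in both NPC lines and in opposite directions. The autosomal share of matched peaks called in opposite directions was not computed.

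**Figure D3:**
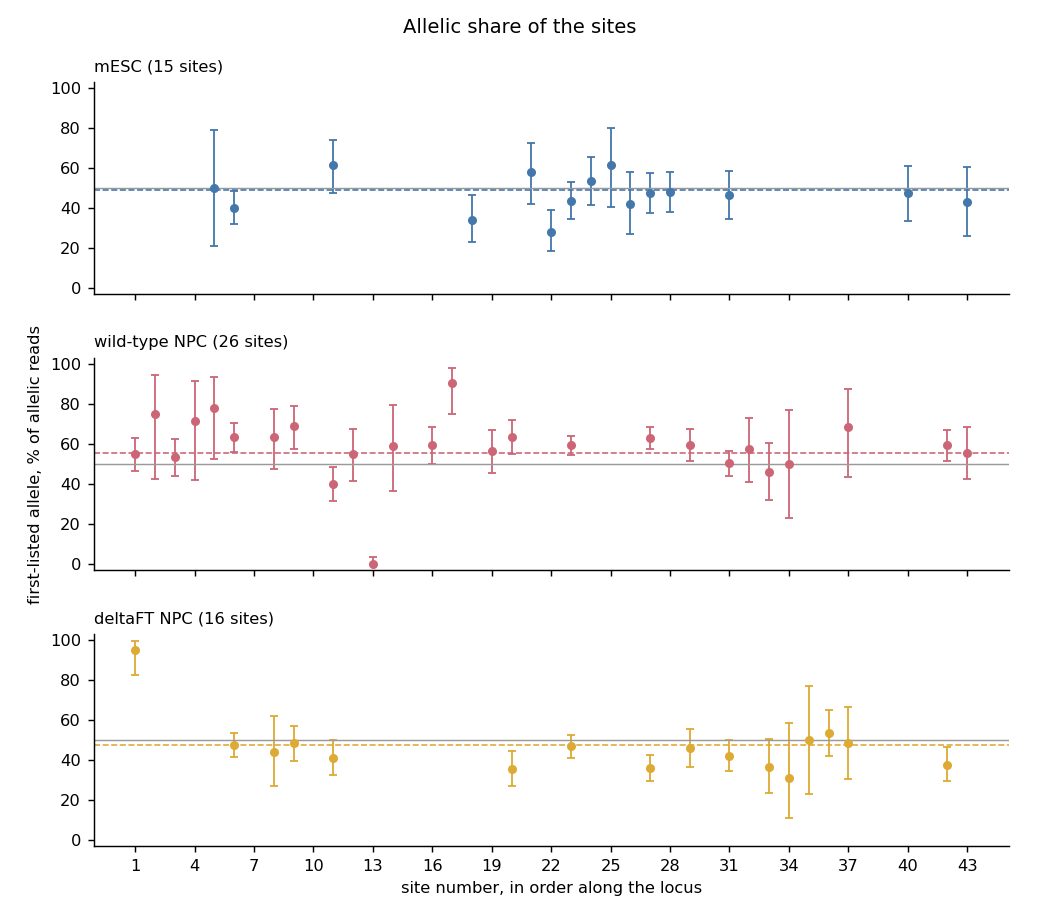
Share of allelic reads on the first-listed allele (y axis, percent) for each usable site (x axis, site number) in the 3 female lines, with exact 95% intervals as bars, a grey line at 50% and a dashed line at the pooled share of the chromosome within 5 Mb of the locus. The sites farthest from 50% are sites 13 and 17 in wild-type NPC and site 1 in deltaFT NPC, each with at least 90% of its allelic reads on 1 allele.

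A single allele gave at least 90% of allelic reads at 0 of 15 sites in mESC (background 1.47%), 2 of 26 in wild-type NPC (background 2.38%) and 1 of 16 in deltaFT NPC (background 1.66%). Site 13 (chr18:37445296-37445549) in wild-type NPC was the most extreme: 0 first-listed and 99 second-listed reads of 105 in all, a share of 0% with an upper limit of 3.66%. It was in both wild-type NPC libraries and in no mESC, deltaFT or TXY list. Site 17 (chr18:37493344-37493582) was tilted to the other allele with 29 and 3 reads (90.6%, 75% to 98%). Unlike site 13, it was also in both library lists of mESC and of deltaFT NPC and in both WT lists of TXY. The pair lies in chr18:37350001-37650000, where the reproducible lists held 10 peaks in wild-type NPC, 3 in mESC and 2 in deltaFT NPC. The library lists showed a smaller contrast there. The usable sites between the pair, 14 and 16, had 59.1% and 59.5% in wild-type NPC.

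At site 13, 94.3% of reads were allelic, against 29.6% at site 17. The third site, site 1, had 37 and 2 reads in deltaFT NPC (94.9%, 82.7% to 99.4%) but 82 and 67 in wild-type NPC (55.0%, 46.7% to 63.2%). Site 2 (chr18:37112794-37112974), next to it, had 9 and 3 reads in wild-type NPC and was not in the reproducible list of deltaFT NPC. The narrower deltaFT peak covers only part of the wild-type one, so the 2 shares do not rest on the same bases. Genes of these families are close copies of each other, and the sources used here do not say whether reads that fit several copies were removed. Its part in these shares was not tested.

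Between lines, sites were compared where both had at least 10 allelic reads, and called where the intervals did not overlap. Wild-type NPC against mESC gave 2 of 7 sites higher (background 7.38%), site 6 at 63.6% against 40.1% and site 23 at 59.4% against 43.7%, and 0 lower (background 4.12%). The peak at site 23 spanned 420 bp in mESC and 674 bp in wild-type NPC, and with widths held within 1.5 times only site 6 was called. DeltaFT NPC against mESC gave 0 of 5 sites higher (background 5.90%) and 0 lower (background 5.12%). The differences there ran from -20.3 to 7.39 percentage points. These comparisons share the mESC sample.

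The NPC lines differed from each other at more sites. Of 14 matched sites, 5 had a lower first-listed share in deltaFT than in wild-type NPC (background 6.36%) and 1 a higher one (background 3.80%), which was site 1. Wild-type NPC had 62.9% at site 27 where deltaFT had 36.0%, and 63.7% at site 20 where deltaFT had 35.5%. The shares were 59.4% and 37.8% at site 42, 63.6% and 47.5% at site 6 and 59.4% and 46.9% at site 23. In all, 12 of 14 sites were below 0, with a median difference of -17.4 points and a range from -28.2 to 39.8. Site 11 was at 39.9% in wild-type NPC and 41.1% in deltaFT NPC, where its interval (32.5% to 50.1%) reached past 50%.

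**Figure D4:**
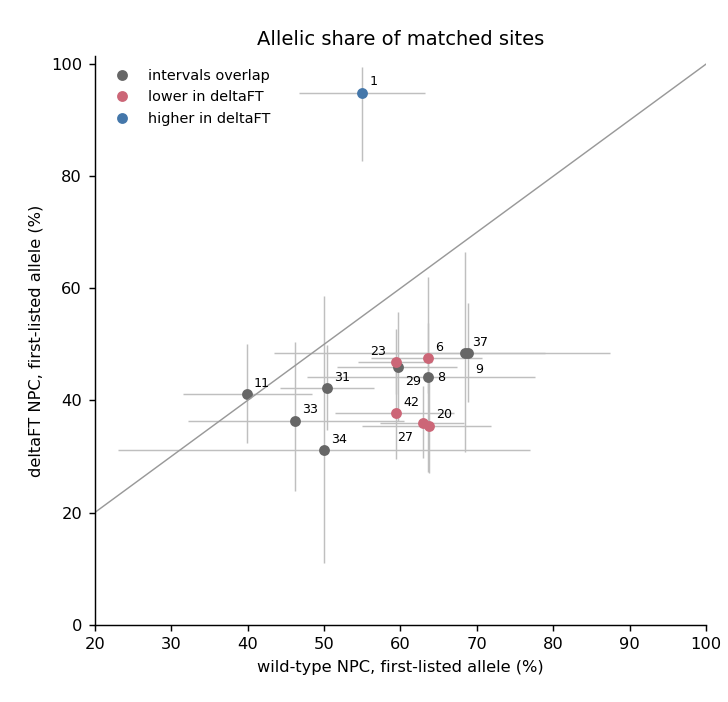
First-listed share of the 14 matched sites in wild-type NPC (x axis, percent) and deltaFT NPC (y axis, percent), with exact 95% intervals as bars, site numbers as labels and a diagonal of equal shares. Points lie below the diagonal at 12 sites, of which 5 have intervals that do not overlap, and site 1 lies far above it.

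The tilt was not confined to the locus. Pooled over usable sites, mESC had a first-listed share of 45.2% (42.1% to 48.3%). It was 56.3% (54.4% to 58.1%) for wild-type NPC and 44.3% (42% to 46.6%) for deltaFT NPC. Chromosome 18 within 5 Mb on either side, the window left out, gave 48.9%, 55.5% and 47.4%. In that flank 23.8% of wild-type NPC peaks were higher on the first-listed allele and 3.40% on the second-listed. Measured from 50%, the locus and its surroundings therefore leaned the same way in each line. In wild-type NPC the 2 pooled shares were nearly the same, but site 13 alone gave 99 of the 1229 second-listed reads of the locus. The median over the 26 usable sites was 59.4%, with 10 higher on the first-listed allele and 2 on the second-listed. The pooled share without site 13 was not computed. The autosomal shares were 47.9% in mESC, 50.4% in wild-type NPC and 48.9% in deltaFT NPC. Measured from these, the mESC flank (48.0% to 49.9%) was higher while the mESC locus was lower. In deltaFT NPC the flank interval (46.8% to 48.1%) lay above that of the locus.

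Between the NPC lines, 16 of 109 matched flank peaks (14.7%) were lower in deltaFT and 0 were higher, with a median of -6.67 points. The locus as a whole differed by -12.0 points, a difference that 65 of 1773 autosomal 1 Mb windows matched or went below. With the peaks of the locus left out of every window, the 8 windows within 5 Mb differed by -15.1 to -4.87 points, so the first-listed share was lower in deltaFT in all 8. The median difference over the 1773 autosomal windows was -1.44 points. All of chromosome 18 outside the locus gave 54.9% in wild-type NPC and 47.5% in deltaFT NPC. Whether the 2 lines differ in the copy number of this chromosome or in the mix of cells was not tested.

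**Figure D5:**
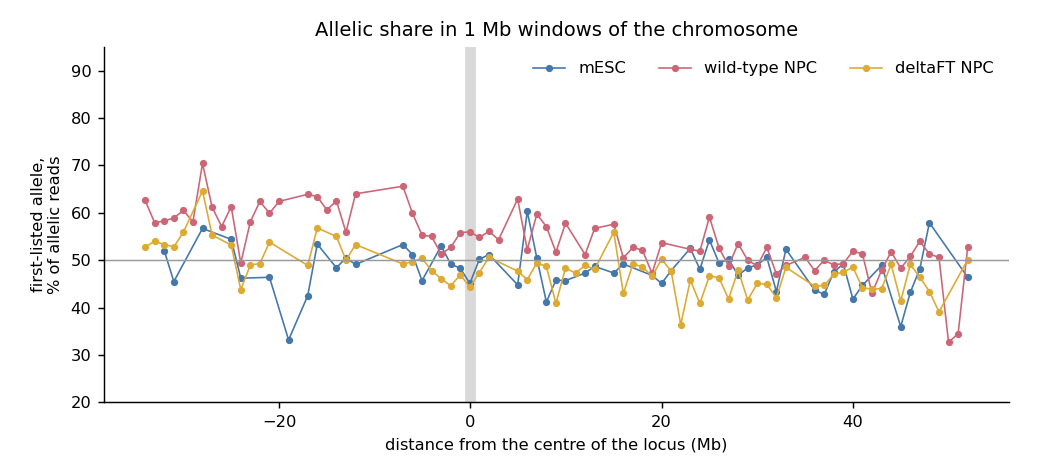
First-listed share of allelic reads (y axis, percent) in 1 Mb windows of chromosome 18 with at least 5 usable peaks, against distance from the centre of the locus (x axis, Mb), for the 3 female lines, with the locus as a grey band, a grey line at 50% and the locus peaks included, the last 50 kb of them in the window to the right of the band. Wild-type NPC lies above deltaFT NPC in the locus and in the windows on both sides of it.

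In male stem cells the locus held 102 peaks in WT without dox, 91 with dox, 87 in deltaRepA without dox and 89 with dox. It was among the denser windows of each list, since 8.0%, 6.14%, 8.72% and 11.8% of 1 Mb windows held as many. Joined over these lists they formed 127 sites, of which 63 were in all 4 (49.6%, 40.6% to 58.6%), where 25.8% of autosomal sites were. The fold enrichment and −log10 p that follow are the authors' values and rank peaks within a list only. The 25.8% was not matched for peak strength. Locus peaks in WT had a median −log10 p of 9.20 without dox and 7.19 with dox, against 6.23 and 5.58 on autosomes. In deltaRepA the medians were 5.84 and 6.30, against 5.65 and 5.51. The part of strength in the share of sites in all 4 lists was not tested. The strongest peak without dox in WT was at site 27, with a −log10 p of 38.5 and 4.28% of autosomal peaks as strong. Site 23 led both plus-dox lists, at 35.6 in WT and 25.6 in deltaRepA, and site 5 led deltaRepA without dox, at 25.3. Common sites of the female lines thus led all 4 male lists.

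The TXY design asks what Xist, the RNA that silences the X chromosome, does with and without its RepA region, and this autosomal locus carries no Xist gene. Of WT peaks 78 of 102 (76.5%, 67.0% to 84.3%) were found again with dox, so 24 were not, where 37.9% of autosomal peaks were not. Of deltaRepA peaks 73 of 87 (83.9%, 74.5% to 90.9%) were found again and 14 were not, against 31.3%. In the reverse direction 15 of 91 WT plus-dox peaks (background 30.6%) and 16 of 89 deltaRepA plus-dox peaks (background 37.2%) were not in the no-dox list. Autosomal no-dox peaks of the same strength were found again in 72.0% of cases in both genotypes. In the reverse direction 83.5% of WT locus peaks were found, against 78.7% at the same strength. For deltaRepA it was 82.0% against 69.8%. Among deltaRepA peaks with a −log10 q of at least 5 the direction turned: 30 of 32 were found again, and the locus lay below the autosomal share (-3.77 points).

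Across genotypes, of WT peaks 28 of 102 were not in deltaRepA without dox (background 39.6%), and 21 of 91 were not with dox (background 36.6%). The shares found were 72.5% without dox and 76.9% with dox. Autosomal peaks of the same strength gave 69.7% and 72.5%, so the excess was 2.87 and 4.47 points. The peaks not found with dox were the weaker ones, with a median −log10 p of 4.34 against 10.9 for those found in WT, and 4.02 against 6.54 in deltaRepA. The strongest not found in WT were chr18:37885272-37886134 and chr18:37960489-37960772, both at 12.3. In deltaRepA they were chr18:37892331-37892634 and chr18:37917538-37917954, both at 8.38. Of 74 sites in both no-dox lists, 3 were not found with dox in either genotype (4.05%, background 6.88%), 4 in WT only (5.41%, background 11.1%) and 4 in deltaRepA only (5.41%, background 6.75%). None of the 127 sites was in both plus-dox lists alone, where 1.80% of autosomal sites were.

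Some sites that the female lines showed only in NPC were open in male stem cells. Of the 27 NPC sites outside the mESC list, 19 (70.4%, 49.8% to 86.2%) were in at least 1 TXY list, where 49.0% of such autosomal sites were. All 4 TXY lists held 9 of them (33.3%, background 24.0%) and none held 8 (29.6%, background 51.0%), and 10 were in a mESC library list. Among wild-type NPC peaks in no mESC list of any kind, 9 of 16 (56.2%, 29.9% to 80.2%) were in a TXY list, against 33.6% of such autosomal peaks. For deltaFT NPC it was 3 of 7 (background 36.9%), and for mESC peaks in no wild-type NPC list 7 of 7 (background 97.1%). The TXY lists are several times longer than the female ones, and a wide TXY peak can cover neighbouring sites. The 8 sites in no TXY list were 7, 13, 16, 19, 29, 30, 38 and 44, among them the site read from a single allele in wild-type NPC and the site with the most NPC reads.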

How the data were processed

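Peak lists of ATAC-seq were used as deposited. The submitters' processing notes name cutadapt, Bowtie2, MACS2 and mm9. The sources used here do not give versions, read filters, the Tn5 offset or the way reads were assigned to alleles. The authors deposited, for each female line, a list of reproducible peaks (irreproducible discovery rate under 0.05) with raw read counts per peak and per allele, and 2 library lists. The sources do not say whether these counts cover 1 or both libraries. Each TXY list, merged by the authors, and each library list holds a deposited fold enrichment (a ratio over background) and deposited −log10 p and q values.

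Peaks were compared by overlap (bedtools 2.31.1, at least 1 bp), and matched by mutual largest overlap. Other steps used python 3.11.15, numpy 2.4.6, pandas 2.3.3, scipy 1.17.1 and matplotlib 3.10.9, and were tested on simulated data. Backgrounds are the 19 autosomes of the same lists. "At the same strength" means weighted over 10 classes of −log10 p. Sites named are the 5 with most reads per list and per cell type, those with unequal or non-overlapping intervals, and the strongest TXY peaks. Alternatives covered list choice, overlap, read minimums, scaling and threshold. Members and lists were chosen with earlier results of these data known. Sequences were not used here.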

Additional observations from a re-analysis of the deposited data

Results flagged for a closer look

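The number of locus peaks moved in opposite directions with dox in the 2 TXY genotypes, by -10.8% in WT (102 to 91 peaks) and by 2.30% in deltaRepA (87 to 89 peaks). The autosomes of the same lists moved by -9.76% and 10.7%. Each value compares 1 merged list with 1 merged list, and the difference between the genotypes was not tested.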

How the results depend on the processing

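Of 113 alternative values for 36 results, 83 stayed within the set limits, 29 moved and 1 reversed. With library lists the locus held 55 and 57 peaks in mESC, 63 and 65 in wild-type NPC and 47 and 39 in deltaFT NPC. At a −log10 q of at least 5 the TXY lists held 61 (WT no dox), 44 (WT plus dox), 32 (deltaRepA no dox) and 33 (deltaRepA plus dox). With any list of the other line allowed, 50.0% of wild-type NPC peaks were in mESC, 68.2% of deltaFT peaks in mESC, 84.4% of wild-type NPC peaks in deltaFT and 95.5% the other way. Per bp of peak, sites 2 fold higher in wild-type NPC than mESC, lower in deltaFT NPC than mESC, and higher or lower in deltaFT than wild-type NPC were each 0. Scaling to the median ratio gave 0 higher in deltaFT than wild-type NPC, and a minimum of 50 reads gave 1 lower. The allele share was 48.9% in mESC and 47.4% in deltaFT NPC in the chromosome within 5 Mb, and 59.4% in wild-type NPC as a median over peaks. With matched widths within 1.5 times, 1 site was higher in wild-type NPC than mESC and 0 in deltaFT than wild-type NPC. A rule of 20 points gave 1 site lower in wild-type NPC than mESC and 1 in deltaFT NPC than mESC. The share of peaks kept with dox exceeded that of autosomes by 14.4 points in WT, by 4.51 at equal strength and by 4.10 at a −log10 q of at least 5 (59 of 61). In deltaRepA it exceeded by 15.3 points and reversed to -3.77 at that limit (30 of 32), which keeps fewer peaks. The 5 Mb flank, the matched widths and the share at equal reads were chosen after seeing the data. Sites with few allelic reads, such as 2, 4, 5 and 34, have wide intervals, and no allele could be read at sites 10, 30, 38, 39 and 44. No paired analysis was possible because each group is 1 sample.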
